A study of Spodoptera frugiperda with 12 samples.

Results

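In embryos of the moth *Spodoptera frugiperda*, the fall armyworm, the chromosome-scale sequences NC_049736.1 and NC_049739.1 are described here by their N6-methyladenosine (m6A) peaks. They were chosen from the measured peaks themselves. Among the 31 NC_0497 sequences with enough loci to be ranked, they had the highest share of loci whose peaks were called at 24 h and not at 2 h. The members are all peaks on them: 4460 on NC_049736.1 and 4295 on NC_049739.1, together 8755 of the 331440 peaks in the 6 deposited lists. Whole embryos of a laboratory colony were collected in bulk at 2 h or 24 h after egg laying, and fragmented poly(A)-enriched RNA was captured with an antibody against m6A. Each time has 3 captured samples with a peak list each, and 6 input samples without capture were not analysed here. Separate egg batches for the 3 samples of 1 time are not stated in the labels, and the spread between lists may be technical. In whole embryos, fewer cells of a type and less RNA per cell cannot be told apart, and a place without a peak may also be a place without detectable RNA.

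m6A is adenosine that carries a methyl group, found within messenger RNA. A methyltransferase complex built around METTL3 and METTL14 writes it, and proteins with a YTH domain bind it. In insects the egg starts with RNA made by the mother, and transcription from the embryo's own genome takes over later. A peak is a stretch of genome where captured RNA was called as enriched. The build of the lists is not stated, and no annotation of these sequences was used. Genes, exons and bases are therefore not named, and positions are those of the deposited lists, converted to count from 1.

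More m6A peaks were called at 24 h than at 2 h on both sequences. NC_049736.1 held 687, 714 and 666 peaks in the 2 h lists and 806, 809 and 778 in the 24 h lists. The 2 h mean was 689 ± 24.1 and the 24 h mean 798 ± 17.1 (SD, n = 3 each), which is 15.8% more. NC_049739.1 held 665, 674 and 588 peaks at 2 h and 793, 785 and 790 at 24 h. Its means were 642 ± 47.3 and 789 ± 4.04 (SD, n = 3 each), which is 22.9% more. On each sequence the lowest 24 h list stood above the highest 2 h list, and list number 3 of 2 h was the lowest of all. Such a separation held for 62.5% of the 32 NC_0497 sequences. On the other 30 sequences together the mean was 7.46% higher at 24 h. Ordered by this excess, NC_049739.1 was number 1 and NC_049736.1 number 3 of the 31 sequences. At equal list length, keeping the strongest peaks of each, the excess was 46.3 in place of 109 peaks on NC_049736.1 and 72.7 in place of 147 on NC_049739.1. These values share the contrast that chose the sequences, so they are given as a description with no test.

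Both sequences were sparse in peaks. Their length is taken here as the extent from the first to the last peak of any list, 11.3 Mb for NC_049736.1 and 8.44 Mb for NC_049739.1. NC_049736.1 carried 60.9 ± 2.13 peaks per Mb in the 2 h lists and 70.5 ± 1.51 in the 24 h lists (SD, n = 3 each). NC_049739.1 carried 76.1 ± 5.60 and 93.5 ± 0.479 (SD, n = 3 each). The other 30 sequences together carried 111 ± 4.08 and 119 ± 1.70 (SD, n = 3 each). Of the 31 sequences ordered from dense to sparse, NC_049736.1 was number 30 and NC_049739.1 number 25.

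**Figure D1:**
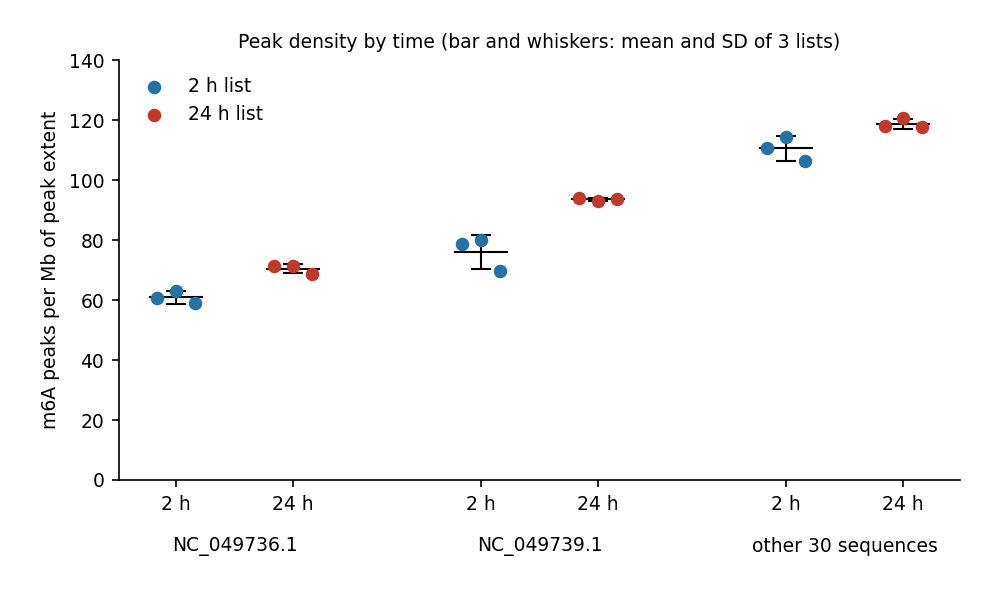
Peaks per Mb of peak extent (vertical axis) in each list of 2 h and 24 h, for NC_049736.1, NC_049739.1 and the other 30 NC_0497 sequences together; points are lists, bars and whiskers the mean and SD of 3 lists. On both sequences the 24 h points lie above the 2 h points, and both times lie below the other sequences.

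Peaks of 75 bases made up much of the difference between the times. NC_049736.1 had 124 ± 14.8 of them per list of 2 h and 208 ± 22.3 per list of 24 h (SD, n = 3 each), and NC_049739.1 had 109 ± 5.57 and 178 ± 18.9 (SD, n = 3 each). Without them, the 24 h lists exceeded the 2 h lists by 25 peaks on NC_049736.1, against 109 with them. On NC_049739.1 the excess was 77.7 peaks without them and 147 with them. On the other sequences the mean per list was 3877 higher at 24 h for peaks of 75 bases and 3741 higher for all peaks. The share of such peaks was higher at 24 h by 8.02 percentage points on NC_049736.1, by 5.59 on NC_049739.1 and by 6.09 on the other sequences.

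Loci were built by joining peaks of 1 strand with gaps under 2000 bases, as stand-ins for transcribed units. NC_049736.1 had 279 loci and NC_049739.1 had 266. A locus is called 24 h-only when all 3 lists of 24 h and no list of 2 h have a peak in it. There were 36 such loci on NC_049736.1 and 28 on NC_049739.1, which is 12.9% and 10.5% of their loci, against 7.36% over all NC_0497 sequences. By this share of all loci, the ranked sequences NC_049731.1 (10.9%) and NC_049716.1 (10.8%) stood above NC_049739.1. Loci with peaks in all 6 lists numbered 117 and 110. The value that chose the sequences is the share of 24 h-only loci among these 2 kinds of locus, which was 12.4% over all NC_0497 sequences. It was 23.5% on NC_049736.1 (36 of 153 loci, exact 95% binomial interval 17.1% to 31.1%). On NC_049739.1 it was 20.3% (28 of 138 loci, 13.9% to 28.0%). Just outside the choice stood NC_049716.1 with 18.4% and NC_049712.1 with 17.3%, and their intervals overlapped those of both sequences. Intervals cover counting error only, and neighbouring loci are not independent.

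**Figure D2:**
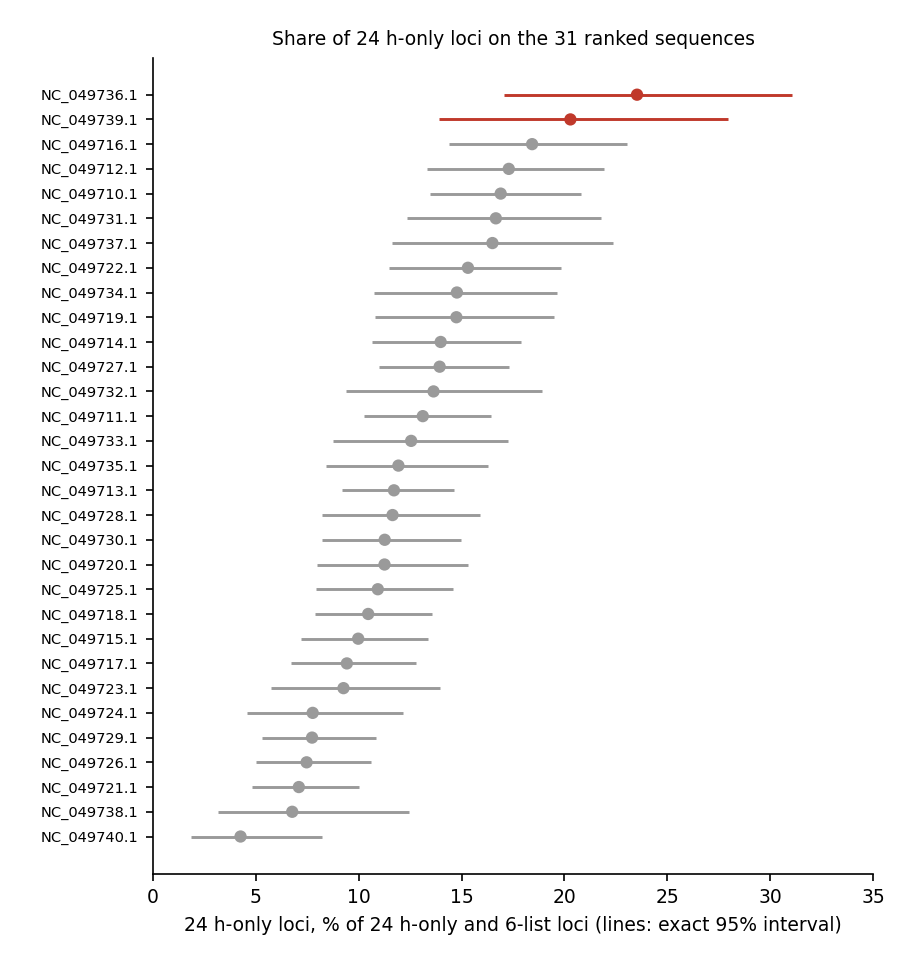
Share of 24 h-only loci among 24 h-only and 6-list loci (horizontal axis, percent) for the 31 sequences with at least 100 such loci, in order of the share; lines are exact 95% binomial intervals. The sequences described here, in red, are at the top with 23.5% and 20.3%, and their intervals overlap those of the next sequences.

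Both sequences had fewer shared loci per Mb than the others pooled, and more 24 h-only loci. NC_049736.1 had 10.3 loci with peaks in all 6 lists per Mb, the lowest density of the 31 sequences. NC_049739.1 had 13.0, number 27 of 31, and the other 30 sequences together had 18.6. The density of 24 h-only loci was 3.18 per Mb on NC_049736.1 and 3.32 on NC_049739.1, against 2.56 on the others. These densities were number 8 and number 5 of the 31, so other sequences carried more 24 h-only loci per Mb.

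**Figure D3:**
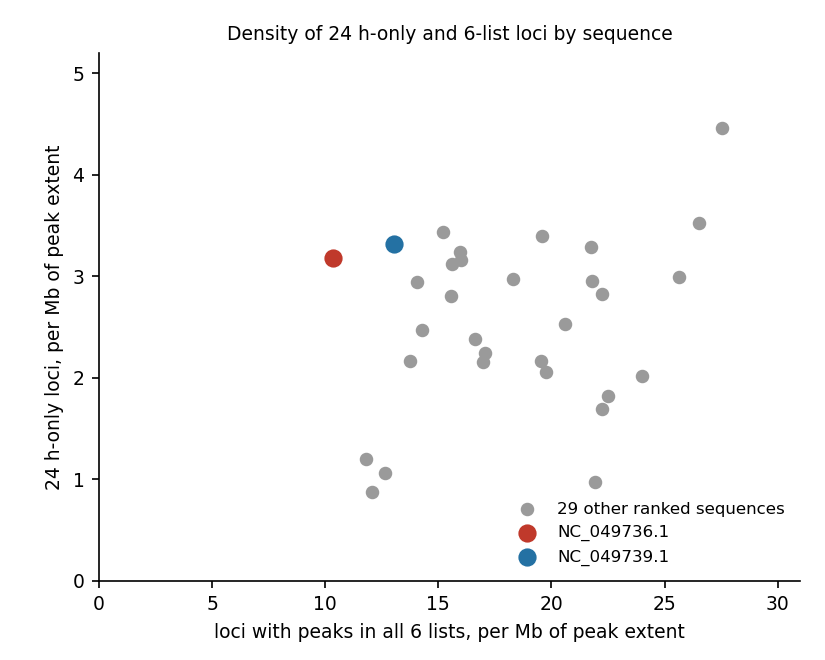
Density of 24 h-only loci (vertical axis, per Mb of peak extent) against the density of loci with peaks in all 6 lists (horizontal axis, per Mb) for the 31 ranked sequences, 1 point each. NC_049736.1, at 10.3 and 3.18, is the point farthest to the left, and NC_049739.1, at 13.0 and 3.32, lies near it.

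Most of the net excess of peaks at 24 h lay in 24 h-only loci, which have no 2 h peak by definition. These loci also chose the sequences, so the values are a description. They made up 92.3% of the excess on NC_049736.1 and 71.0% on NC_049739.1, against 98.7% on the other sequences. Loci of other patterns made up 41.7% and 34.0%, against 51.1%. Loci with peaks in all 6 lists made up -32.2% and -4.31%, against -46.6%. On NC_049736.1 the 24 h-only loci held 98, 98 and 105 peaks in the 24 h lists, and on NC_049739.1 they held 106, 107 and 100. That was 12.6% and 13.2% of the peaks of these sequences at 24 h, against 6.85% on the other sequences. The mean in loci with peaks in all 6 lists was lower at 24 h. It went from 634 ± 3.61 to 599 ± 10.6 on NC_049736.1 and from 564 ± 23.9 to 558 ± 13.7 on NC_049739.1 (SD, n = 3 each). The first of these sets did not overlap between the times and the second did. On how many other sequences such loci separate the times was not counted. On the other sequences the mean in such loci changed by -3.74%, against -5.52% and -1.12% here. Loci of any other pattern went from 53 ± 19.5 to 98.3 ± 21.0 peaks per list on NC_049736.1 and from 77 ± 24.6 to 127 ± 8.66 on NC_049739.1 (SD, n = 3 each).

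Loci of other patterns leaned to 24 h as well, at about the rate of the other sequences. Of 252 such loci on both sequences, 158 had peaks in more 24 h than 2 h lists, 65 in more 2 h lists and 29 in as many of each. The 158 are 62.7%, against 60.6% on the other sequences. A peak in a single 24 h list and nowhere else was present in 80 loci, and in a single 2 h list in 17. These are 14.7% and 3.12% of all loci here, against 12.2% and 3.14% on the other sequences.

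Single loci with peaks at both times changed about as often here as elsewhere. Of the 227 loci with peaks in all 6 lists, 11 had more peaks in every 24 h list than in any 2 h list. That is 4.85%, against 4.93% over all NC_0497 sequences. In 19 loci (8.37%, against 7.77%) every 24 h list had fewer peaks than any 2 h list. Both shares are near the background.

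The 24 h-only loci of NC_049736.1 were about as rich in peaks as those elsewhere. Of the 36, 6 (16.7%) had just 1 peak in every 24 h list and 4 (11.1%) had at least 5 in every one, against 17.99% and 13.1% on the other sequences. Their median length was 1880.5 bases, from 75 to 84846. Locus sizes are genomic extents that can include introns. Ordered by their poorest 24 h list, number 1 lay on the minus strand from 11176789 to 11182029, with 7, 6 and 9 peaks in the 24 h lists. None of its peaks was longer than 75 bases. Its strongest peak stood at the 41.1, 37.9 and 65.9 percentile of the scores of its list, so many peaks did not make it a high-scoring locus.

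Next came a plus-strand locus from 5470035 to 5486294 with 7, 10 and 5 peaks, the same mean of 7.33 per list as number 1, and a minus-strand locus from 3067301 to 3075153 with 5, 6 and 9. Number 4 was the strongest of the named loci by score. This minus-strand stretch of 1425 bases, from 1069569 to 1070993, had 5, 6 and 7 peaks. Its best peak reached the 97.7, 98.3 and 97.9 percentile of the 24 h lists, with no peak in any 2 h list. The nearest minus-strand locus with a 2 h peak was 45640 bases away. The remaining named loci of the minus strand ran from 2918829 to 2919974 (5, 5 and 4 peaks) and from 7098112 to 7104665 (5, 4 and 5 peaks). Their best peaks stood between the 70.0 and the 88.3 percentile.

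On NC_049739.1 the 24 h-only loci fell further apart in number of peaks. Of the 28, 9 (32.1%) had just 1 peak in every 24 h list and 7 (25%) had at least 5 in every one, against the 17.99% and 13.1% of the other sequences. The richest locus, on the minus strand from 5254270 to 5269828, had 10, 14 and 12 peaks, and its best peak stood at the 92.3, 92.7 and 92.3 percentile. A minus-strand locus from 6769955 to 6789553 had 11, 13 and 10 peaks with a best percentile of 88.5, 90.9 and 87.9. The other minus-strand loci were 4356353 to 4361352 (13, 11 and 9 peaks), 967668 to 973592 (11, 9 and 8) and 1591569 to 1594560 (9, 6 and 11). The only plus-strand locus among the 6 named ran from 3819193 to 3829033, with 8, 7 and 9 peaks. All 6 had at least 6 peaks in their poorest 24 h list.

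**Figure D4:**
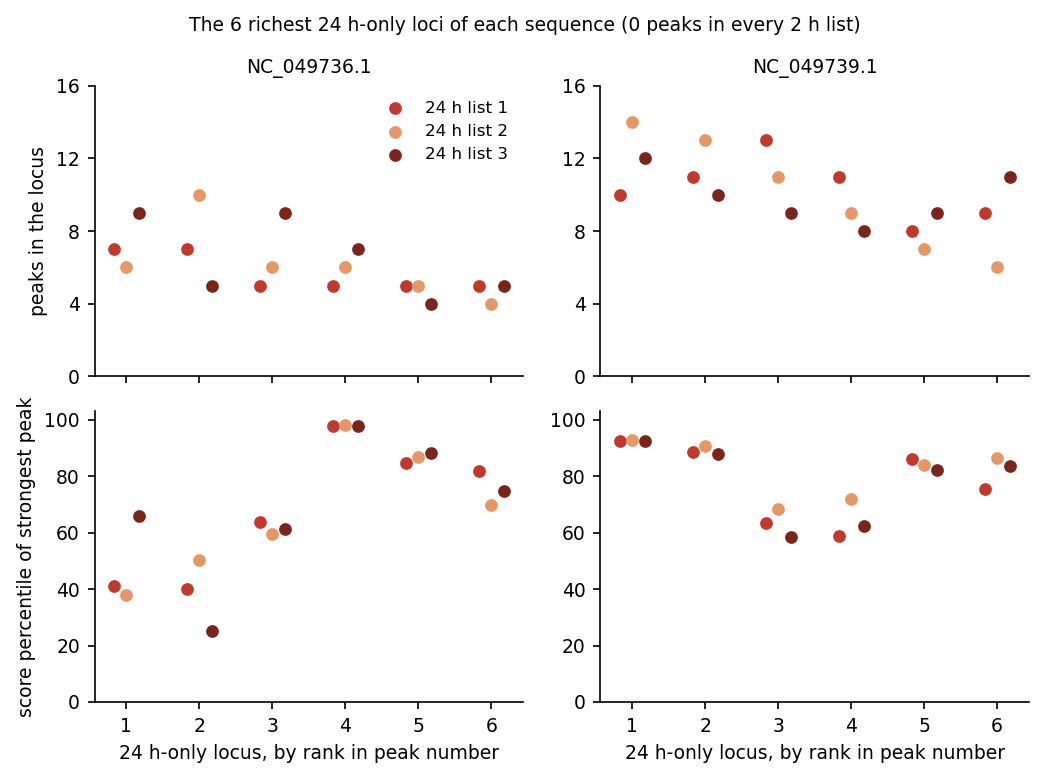
The 6 24 h-only loci of each sequence with the most peaks in their poorest 24 h list, in that order (horizontal axis): peaks per 24 h list (upper panels) and percentile of the best peak's score within its list (lower panels, 100 at the top). Points are the 3 lists of 24 h. Locus number 4 of NC_049736.1 lies near the 98 percentile with 5 to 7 peaks.

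The minus-strand locus from 6769955 had a neighbour that bears on its name. Only 2864 bases from it, on the same strand from 6760285 to 6767090, was a locus with 1, 0 and 1 peaks at 2 h and 8, 4 and 5 at 24 h. The best peak there stood at the 19.9 and 12.6 percentile in its 2 h lists and had an infinite score in all 3 lists of 24 h. This neighbour was picked out after its values were seen. Whether both loci belong to 1 transcript was not tested.

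Few 24 h-only loci lay within 10 kb of a locus with 2 h peaks. On NC_049736.1, 4 of 36 lay within 10 kb of a locus of the same strand with a peak in any 2 h list, and on NC_049739.1 5 of 28 did. Together this was 14.1%, against 24.4% on the other sequences. At least 50 kb separated 13 of 36 (36.1%) and 15 of 28 (53.6%) from the nearest such locus, against 37.4% elsewhere. The median distance was 41.8 kb and 66.5 kb, against 30.6 kb elsewhere. Loci of all kinds are also farther apart on these sequences, with 24.7 and 31.5 loci per Mb against 35.5. The part of that spacing in the distances was not tested.

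The opposite kind of locus was rare here and over all NC_0497 sequences. One 2 h-only locus lay on each sequence, 0.358% and 0.376% of their loci, against 0.576% over all NC_0497 sequences. On NC_049736.1 it was on the minus strand from 3181117 to 3181341, with 2, 3 and 1 peaks and a best score at the 35.7, 29.1 and 4.72 percentile. On NC_049739.1 it was a single peak of 155 bases on the minus strand from 110951 to 111105, at the same place in each 2 h list. Both were weak by score.

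In 5 of the 6 named loci present in all lists, the peak numbers of the 2 times overlapped or met. The plus-strand locus of NC_049736.1 from 3599337 to 3616734 had 21, 25 and 26 peaks at 2 h and 27, 26 and 26 at 24 h. Near the start of the sequence, from 736 to 15661, a plus-strand locus had 16, 16 and 14 peaks at 2 h and 14, 15 and 16 at 24 h. The exception was on the minus strand from 3510985 to 3516659, with 25, 23 and 30 peaks at 2 h and 16, 13 and 19 at 24 h, so every 24 h list was lower. On NC_049739.1 the largest ran on the plus strand from 5921626 to 5957070, with 33, 23 and 32 peaks at 2 h and 47, 42 and 29 at 24 h. Those from 6557355 to 6573393 and from 1679268 to 1691517 had 17 to 22 and 21 to 23 peaks at 2 h, and 18 to 20 and 15 to 22 at 24 h. In all 3 loci of NC_049739.1 the times overlapped.

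The 24 h-only loci were spread along NC_049736.1, while parts of NC_049739.1 had none. On NC_049736.1 each of the 12 windows of 1 Mb had at least 1. Those at 7 to 8, 9 to 10 and 10 to 11 Mb had just 1. The most were in the windows at 5 to 6 Mb (6 loci), 0 to 1 Mb (5) and 6 to 7 Mb (5). On either side of the middle of the extent the share of 24 h-only among 24 h-only and 6-list loci was 24.1% (lower positions) and 22.7%. On NC_049739.1 the windows at 4 to 5 Mb and 7 to 8 Mb had 6 each, and those at 1 to 2 Mb and 5 to 6 Mb had 5 each. The window at 7 to 8 Mb had as many 24 h-only loci as loci with peaks in all 6 lists, 6 of each. The window at 2 to 3 Mb, with 21 loci, and the last one, with 15, had none. On either side of its middle the share was 16.1% (lower positions) and 23.7%. How many windows of the other sequences have no 24 h-only locus was not counted.

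Peak numbers were higher at 24 h in most windows. Of the 21 windows on both sequences, 13 had more peaks in every 24 h list than in any 2 h list, against 35.5% of windows over all NC_0497 sequences. The contrast is the one that chose the sequences. The largest excess was at 5 to 6 Mb of NC_049739.1, with 92.3 peaks on average at 2 h and 135 at 24 h. That window holds the richest 24 h-only locus and the plus-strand locus from 5921626. At 3 to 4 Mb of NC_049736.1 the mean went the other way, from 130 to 112, and this window holds the minus-strand locus from 3510985. The first window of NC_049739.1 went from 108 to 95.3, with lists of both times overlapping.

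**Figure D5:**
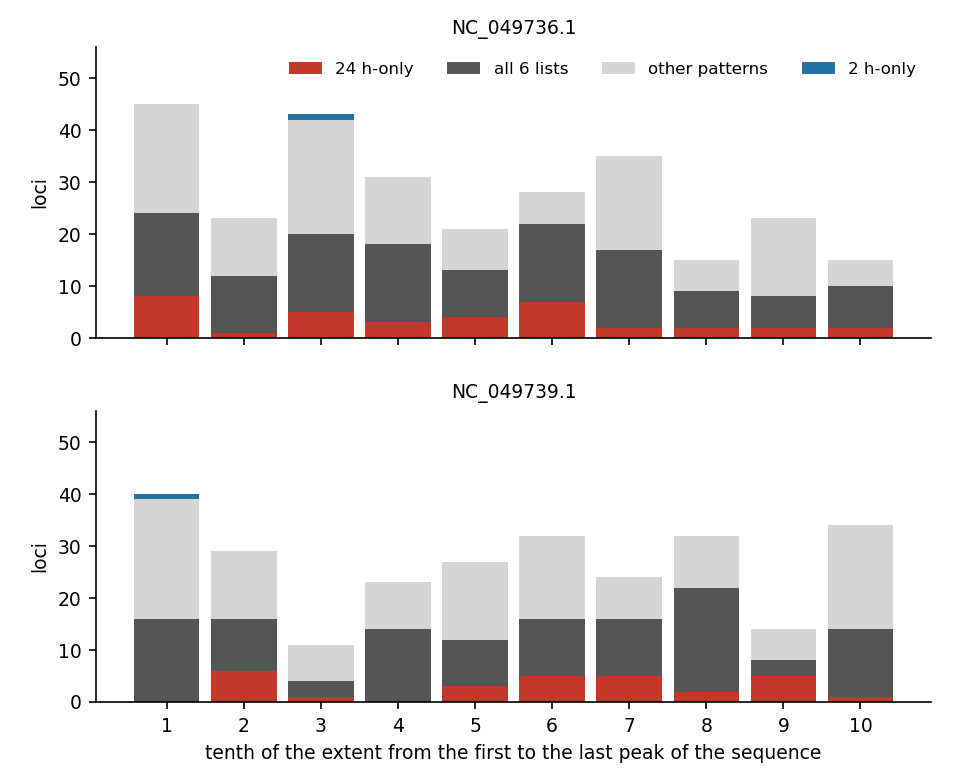
Number of loci (vertical axis) in each of 10 equal parts of the extent from the first to the last peak (horizontal axis) of NC_049736.1 (top) and NC_049739.1 (bottom), by presence of peaks. The 24 h-only loci, in red, occur in all 10 parts of NC_049736.1 with 8 in part 1, and are missing from parts 1 and 4 of NC_049739.1.

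Some 24 h-only loci stood side by side. On NC_049736.1 8 pairs of consecutive loci were both 24 h-only, and on NC_049739.1 10 were. No row was longer than 3 loci, and elsewhere the longest row had 7. Set against the number of 24 h-only loci these pairs are 22.2% and 35.7%, and 25.5% on the other sequences. The row with the most peaks was on the minus strand of NC_049739.1 from 1591569 to 1664310. Its 3 loci held 13, 13 and 16 peaks in the 24 h lists. The other rows of 3 loci on NC_049739.1 ran from 4425544 to 4498795 and, on the plus strand, from 7448370 to 7541570. Those of NC_049736.1 ran from 1005619 to 1070993, with the high-scoring minus-strand locus at its end, and on the plus strand from 6623105 to 6668167.

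Consecutive loci lay on 1 strand more often on these sequences than on most. Of all pairs of consecutive loci, 69.1% on NC_049736.1 and 70.2% on NC_049739.1 were on the same strand, number 4 and number 2 of the 31 sequences, against 59.1% on the others. The longest run of loci on 1 strand was 13 on the plus strand of NC_049736.1 from 8497158 to 9272222. On NC_049739.1 it was 17 on the minus strand from 5254270 to 5849491, a run that begins with the richest 24 h-only locus. Among 24 h-only loci alone the pairs on 1 strand were 57.1% and 59.3%, against 63.7% elsewhere. Their longest runs were 7 plus-strand loci from 183438 to 1041801 on NC_049736.1 and 5 plus-strand loci from 7300668 to 7541570 on NC_049739.1. By strand, the 24 h-only loci were 23 plus and 13 minus on NC_049736.1, and 12 plus and 16 minus on NC_049739.1. A transcript can be split into several loci, and that lengthens such runs.

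Span, score and strand of peaks were compared between each sequence and the other 30 within each list, with an exact two-sided sign-flip test over the 6 lists. Its smallest p is 0.03125. P-values were adjusted over 8 comparisons by Benjamini-Hochberg, and no comparison fell below an adjusted p of 0.05. The median spans are among the 8 and are the same in every list, so they cannot differ. Adjusted over the 6 comparisons that can, which was chosen after seeing the data, the smallest exact sign-flip p of 0.03125, reached by 5 of them, becomes an adjusted p of 0.0375. The lists share 1 genome and many transcripts, so the test says whether a difference recurs from list to list. It does not say how far 2 sequences stand from others picked at random. All peaks of a list entered, so the 24 h lists include peaks of the 24 h-only loci that chose the sequences. How far those loci shape the differences was not tested.

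Peaks of long span, over 1000 bases of genome, made up a larger share of peaks than elsewhere in each list. The median span was 75 bases in all 6 lists on both sequences and on the others. Common spans are 25, 50 and 75 bases, so this median separates lists poorly. In the stronger 50% of each list the median differed from the others by 18.8 bases on NC_049736.1 and by 12.5 on NC_049739.1, with exact sign-flip p = 0.0625 and 0.25. Peaks that spanned over 1000 bases of genome were 6.54% of peaks on NC_049736.1 and 4.62% on the others. The difference was 1.92 ± 0.910 percentage points (SD, n = 6, higher in 6 of 6 lists, exact sign-flip p = 0.03125, adjusted p = 0.05). On NC_049739.1 they were 6.90%, a difference of 2.28 ± 0.674 points (SD, n = 6, higher in 6 of 6 lists, exact sign-flip p = 0.03125, adjusted p = 0.05). Among the 31 sequences NC_049739.1 was number 5 and NC_049736.1 number 8 in this share.

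The longest peaks recurred across lists. A plus-strand peak of NC_049739.1 from about 4932421 to 5129017 spanned 196597 bases in the first 2 h list and 196572 to 196622 in the others. Another, from about 2034420 to 2212969, was called at 178350 to 178575 bases in 5 of 6 lists. A plus-strand peak from 4157287 to 4284206 was called at this length in the 3 lists of 24 h. The single longest, 370901 bases from 2216511, was in the first 24 h list. On NC_049736.1 a plus-strand peak from about 8356568 to 8461250 spanned 104508 to 104683 bases in 4 lists. Spans of this size are distances on the genome and say nothing of the length of RNA captured.

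Peaks on both sequences had low scores for their lists. The median peak of NC_049736.1 stood at the 43.1 percentile of its list, against 50.1 on the other sequences, a difference of -6.93 ± 1.73 (SD, n = 6, lower in 6 of 6 lists, exact sign-flip p = 0.03125, adjusted p = 0.05). On NC_049739.1 it stood at 36.7, a difference of -13.4 ± 2.21 (SD, n = 6, lower in 6 of 6 lists, exact sign-flip p = 0.03125, adjusted p = 0.05). Of the 31 sequences ordered from high to low they were number 25 and number 26. Scores in loci with peaks in all 6 lists were also below those elsewhere, less so on NC_049736.1 at 24 h. There the median percentile was 44.7 ± 1.61 in the 2 h lists and 51.6 ± 0.477 in the 24 h lists of NC_049736.1 (SD, n = 3 each). The median percentile of NC_049739.1 in its 6-list loci was 39.4 ± 0.990 in the 2 h lists and 43.7 ± 3.08 in the 24 h lists (SD, n = 3 each), against 52.7 and 55.0 elsewhere. In 24 h-only loci it was 34.4 ± 2.73 on NC_049736.1, 34.0 ± 1.80 on NC_049739.1 and 35.2 ± 0.635 elsewhere (SD, n = 3 each).

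NC_049736.1 was low in the middle of the score range and high at the top. When only the stronger 50% of each list was kept, its median peak stood 4.87 percentile points above the other sequences, the opposite direction. Infinite scores were given to 1.99% of its peaks on average (1.24% to 2.91% per list), against 1.18% on the others (0.873% to 1.44%). On NC_049739.1 they were 1.46% (1.34% to 1.53%), and in the stronger 50% its median differed from the others by -8.26 points.

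Infinite scores lay in 13 loci of NC_049736.1, all with peaks in all 6 lists, and in 8 loci of NC_049739.1, of which 7 had peaks in all 6 lists. None was in a 24 h-only locus. The plus-strand locus of NC_049739.1 from 7929401 to 7932320 had 6 such peaks in each of the 6 lists. Several loci reached the top of the scale at 1 time, and they were picked out after their values were seen. At 2 h the plus-strand locus of NC_049736.1 from 5824800 to 5829003 had 3, 4 and 2 infinite scores and none at 24 h. The minus-strand locus from 11289137 to 11293460 had 4, 3 and 3 and none at 24 h. In both the best 24 h peak was still at the 96.4 percentile or higher. The reverse was seen at the plus-strand locus from 2682151 to 2687240. Its best peak stood at the 26.7, 38.2 and 15.2 percentile at 2 h, and at 24 h it had 2, 3 and 2 infinite scores. Infinite scores in every 24 h list and none at 2 h were also at the locus of NC_049736.1 from 7271280 to 7275564. On NC_049739.1 they were at the loci that start at 4295032, 5441146, 6425518 and 6760285. The minus-strand locus of NC_049739.1 from 2992373 to 2993197 had them in every 2 h list and none at 24 h. How often this occurs on the other sequences was not counted.

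Strand shares were near even. Plus-strand peaks were 53.0% on NC_049736.1 and 49.9% on the others, a difference of 3.08 ± 1.09 points (SD, n = 6, higher in 6 of 6 lists, exact sign-flip p = 0.03125, adjusted p = 0.05). On NC_049739.1 they were 50.02%, and the difference of 0.088 ± 1.48 points was positive in 2 and negative in 4 of 6 lists (exact sign-flip p = 0.906, adjusted p = 1). Which strand is called plus is a convention of the assembly.

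Along the shared loci, the last part held more m6A peaks than the first on both sequences and elsewhere. In loci with peaks in all 6 lists and over 1000 bases long, cut into 10 equal parts in the direction of the strand, the last part held 26.1% ± 1.14 of peaks on NC_049736.1 and 26.7% ± 1.32 on NC_049739.1 (SD, n = 6 lists). The other sequences had 25.05% ± 0.516. The first part held 12.6% ± 0.706 on NC_049736.1, 10.6% ± 0.681 on NC_049739.1 and 12.7% ± 0.238 on the others (SD, n = 6 lists). The highest list of NC_049739.1, 11.5%, was below the lowest of the others, 12.4%. The others are pooled over 7219 such loci, against 88 on NC_049739.1, and single sequences among them were not compared. In the 25 such 24 h-only loci of NC_049736.1 the first part held 22.2% ± 3.06 and the last 23.0% ± 2.104 (SD, n = 3 lists). The 19 of NC_049739.1 had 12.8% ± 0.694 and 25.6% ± 1.83, and the other sequences 14.8% ± 0.492 and 28.9% ± 1.26 (SD, n = 3 lists). Locus ends are set by peaks, which fills both outer parts, and differences in these shares were not tested.

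Lists overlapped less on NC_049739.1 when long peaks were set aside. For peaks of at most 1000 bases the Jaccard index, shared over joint length, averaged 0.309 between 2 h lists and 0.204 between 24 h lists there. The values were 0.430 and 0.300 on NC_049736.1, and 0.473 and 0.314 on the other sequences (3 pairs each). Pairs across the times averaged 0.192, 0.282 and 0.316 (9 pairs each). With all peaks the 2 h pairs of NC_049739.1 averaged 0.645, above the 0.529 of the others.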

How the data were processed

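Captured RNA of 6 samples is given as 6 peak lists in BED form. The submitters' processing notes name HOMER, HISAT2 (version 2.1.0), Bowtie2 (version 2.2.5) and fastp (version 0.20.0), without roles. Not given in the sources used here are the peak caller, its threshold, the build and the annotation. The score of each peak is the authors' own value on an unstated scale, deposited with some values infinite, and it served only to rank peaks within a list. Starts were deposited by the authors as counted from 0, as in BED, and 1 was added so that printed positions count from 1. Lists give no read counts, so depth is unknown. They hold 51157 to 58161 peaks each.

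Lists were joined into loci (same strand, under 2000 bases apart, 17120 on all sequences) and compared within lists by exact sign-flip tests. Loci were named by number of peaks in the poorest list, 6 24 h-only and 3 shared per sequence, and every 2 h-only locus, windows and strand runs by count. Both sequences, the locus definition and these rules were chosen with earlier results of these data known. Times were described without tests, since they chose the sequences. The locus and test code was tested on simulated data. Alternatives were other joining distances, subsets of peaks, looser presence, strand ignored, lists left out and a replicate block. Computation used scipy 1.17.1, pandas 2.3.3, numpy 2.4.6 and Python 3.11.15, and plots used matplotlib 3.10.9.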

Additional observations from a re-analysis of the deposited data

How the results depend on the processing

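The excess of peaks at 24 h, 109 per list on NC_049736.1 and 147 on NC_049739.1, was 46.3 and 72.7 at equal list length, 73.7 and 76.3 in the stronger 50% of each list, and 25 and 77.7 without peaks of 75 bases. Presence in at least 2 of 3 lists gave 57 loci of 24 h on NC_049736.1, a share of 32.8%, against 36 and 23.5%. On NC_049739.1 it gave 41 loci and 27.2%, against 28 and 20.3%. The other sequences rose as well, to 1974 loci and 19.0%, against 1162 and 12.1%. With joining distances of 500 and 10000 bases there were 50 and 29 such loci on NC_049736.1 and 38 and 20 on NC_049739.1. Leaving out 1 list gave 36 to 48 and 28 to 38 loci under a looser requirement, and 1245 to 1589 on the other sequences, against 1162. The score difference of NC_049736.1, -6.93, was 4.87 in the stronger 50% of each list. The plus-strand difference of NC_049739.1, 0.088, was -0.502 without peaks of 75 bases and -0.373 to 0.357 with 1 list left out. The cause was not tested in any of these. Adjusted without the median spans, an alternative added after seeing the data, the share of spans over 1000 bases (1.92 and 2.28), the score percentile (-6.93 and -13.4) and the plus-strand share of NC_049736.1 (3.08) passed with exact sign-flip adjusted p = 0.0375, against 0.05 over all 8. With 5 lists the smallest p is 0.0625, so tests with 1 list left out cannot pass.

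With a replicate block, taking differences between lists of the same number, the excess was 109 and 147, the same as without, since each time has every number. Deviations of same-numbered lists from the mean of their time, over 21 windows, correlated at 0.215, -0.0046 and -0.097. Lists of unlike number correlated at -0.355 to 0.250. With so few windows and lists, these values cannot decide whether the numbers pair the lists. Depth is unknown, so how far it limits these calls could not be measured.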

Other observations

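Sequence NC_049741.1, below the minimum of 100 loci for ranking, had a higher share of 24 h-only loci than either sequence described here, 7 of 8 (87.5%, exact 95% binomial interval 47.3% to 99.7%). It held 13, 15 and 12 peaks in the 2 h lists and 41, 36 and 31 in the 24 h lists.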
